A study of Mus musculus with 12 samples.

Results

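The genes that build and position epithelial cell junctions were followed in bile duct organoids from mice with and without a Jag1 mutation. The set held 42 genes out of 53700 genes in the deposited count table. They were listed by symbol, with earlier results of these data known. The set comprised 10 claudins, 7 other tight junction genes, 6 adherens junction genes, 10 polarity genes, 3 genes of the ezrin, radixin and moesin family (ERM), and 6 desmosome genes. RNA was sequenced from 12 intrahepatic cholangiocyte organoid cultures, which are bile duct epithelium grown as hollow balls in Matrigel, left untreated and collected at passage 5. The cultures came in pairs from 6 mice, with 1 started at the liver hilum, where the large ducts lie, and 1 at the periphery. Mice 1219, 1220 and 1224 carried 2 copies of the Ndr allele (genotype Jag1 Ndr/Ndr), and the wild-type mice were Jag1+/+ (WT, mice 1221, 1223 and 1225), so Ndr hilar, WT hilar, Ndr peripheral and WT peripheral cultures numbered 3 each. Jag1 encodes a Notch ligand, and the series describes the Ndr mouse as a model of Alagille syndrome, a disease with too few bile ducts. The allele was present throughout the mouse, each culture was expanded from 1 animal, and the labels used here give no age or strain.

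Tight junctions seal the space between epithelial cells and keep bile in the duct lumen. Claudins form their strands, which are tied to the actin cytoskeleton by scaffold proteins. Adherens junctions and desmosomes hold the cells together by cadherins anchored to actin and to keratin filaments. The Par, Crumbs and Scribble complexes set where the apical membrane ends, and ERM proteins anchor the apical membrane to actin. In people, loss of CLDN1 causes a sclerosing cholangitis of newborns, and Notch signalling from Jag1 is needed for duct formation.

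Libraries held 6708822 to 16030880 counts. Cholangiocyte markers were present in all 12 libraries, with 15 of 16 listed markers over 1 CPM on average and a summed level of 12366 to 22521 CPM. Markers of endothelial cells summed to at most 0.618 CPM and of fibroblasts and stellate cells to at most 1.79 CPM, with Kdr, Cldn5, Dcn, Lum and Thy1 at 0 counts in every library. Immune markers summed to 9.90 to 40.1 CPM, with Csf1r the highest on average, while Adgre1 was at 0. Hepatocyte markers summed to 159 to 328 CPM, most of it Hnf4a, with Apoc3, Cps1 and Cyp7a1 at 0. Mesothelial markers, almost all Msln, ranged from 37.5 to 658 CPM, and gut and stomach markers, mostly Vil1, from 83.2 to 302 CPM. CPM is the count per 1000000 of the library size, scaled by the trimmed mean of M values (TMM).

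Of the 42 genes, 41 passed the filter on low counts. Cldn18, a claudin of stomach and lung, did not: it had 0 to 5 counts per library and at most 0.457 CPM. Levels of different genes were compared per kilobase of annotated exon. On that scale Ctnnb1 (beta-catenin) stood highest at 342 CPM per kb over the 12 cultures, followed by Cldn2 at 314, Cdh1 (E-cadherin) at 278, Cldn4 at 253 and Ezr (ezrin) at 177 CPM per kb. Ezr lay at the 97.4th percentile of the tested genes and the other four above it. The lowest tested genes were Prkcz at 3.94, Cldn23 at 2.94 and Cldn1 at 1.04 CPM per kb. The order was nearly flat across the 4 groups for most genes, while Cldn1, Cldn6 and Cldn8 spread over several-fold between group means.

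**Figure D1:**
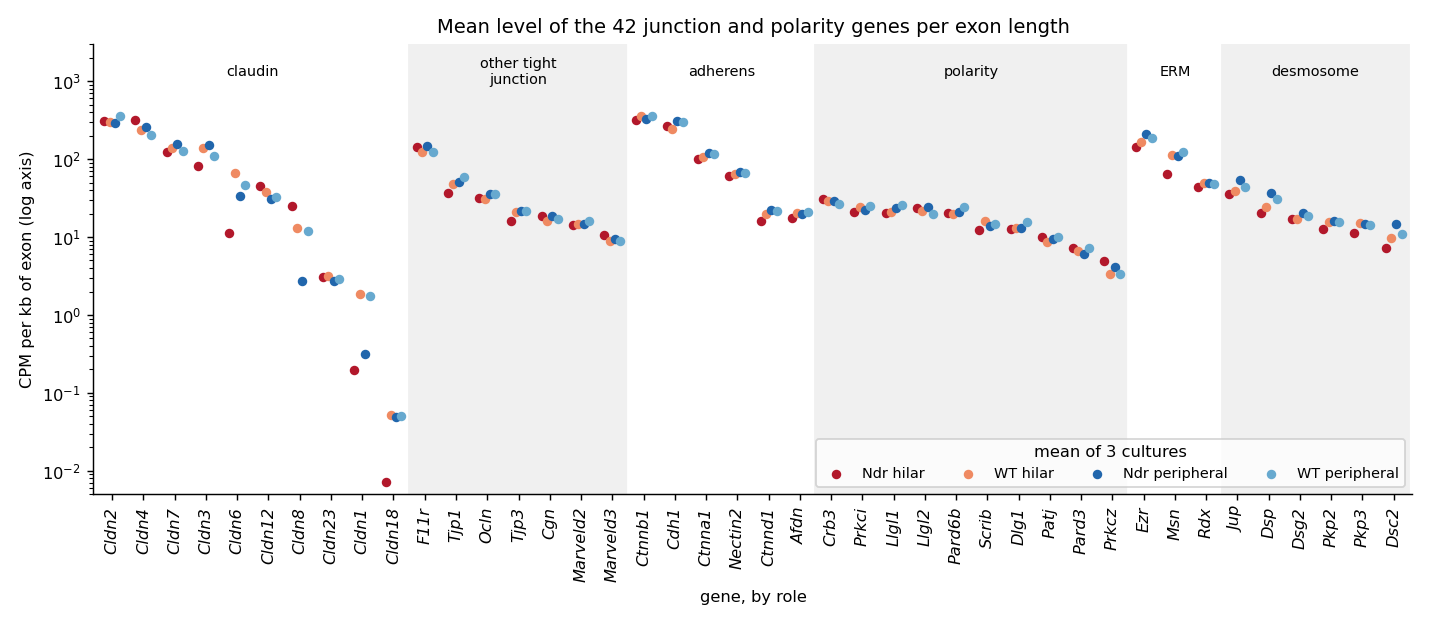
Mean level of each of the 42 genes, in CPM per kb of exon on a log axis, by role and in order of level within a role; each point is the mean of the 3 cultures of 1 group. Ctnnb1, Cldn2, Cdh1 and Cldn4 lead, the 4 group means of most genes lie close together, and Cldn6, Cldn8, Cldn1 and the nearly absent Cldn18 spread most.

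No gene of the set differed between genotypes or regions past an adjusted p of 0.05 in edgeR's quasi-likelihood test (Benjamini-Hochberg adjustment over all genes tested), in any of 7 comparisons. The same was true of all genes: in each comparison 0 of 15014 or 15401 tested genes passed, so the called share was 0%. Counts at an unadjusted p under 0.05 are given below beside the share of all tested genes. The values that follow describe these cultures, and differences are named without a call.

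Claudins. Cldn1, a barrier claudin, was the most different gene of the set between genotypes. Ndr hilar cultures stood at 2.61, 0.261 and 0 CPM, against 2.56, 21.9 and 2.64 CPM in WT hilar cultures. In peripheral cultures it stood at 1.65, 1.60 and 1.37 CPM in Ndr and at 6.64, 4.66 and 14.3 CPM in WT. The peripheral groups did not overlap, whereas in hilar cultures 1 Ndr culture reached the level of the lower WT cultures. The culture at 0 CPM allows up to 3 counts, or 0.383 CPM. Summed per mouse, Cldn1 averaged 1.31 ± 0.70 CPM in Ndr mice and 8.54 ± 3.97 CPM in WT mice (SD, n = 3 each), and all 3 Ndr mice lay below all 3 WT mice. Its log2 fold change over both regions was -2.69 ± 0.53 (SE), with an unadjusted p of 0.00144 and an adjusted p of 0.453 (edgeR). In the 14 alternative analyses of that comparison the fold change stayed negative, and the adjusted p ranged from 0.000317 (DESeq2, the smallest) to 0.9999. DESeq2 called Cldn1 and 113 genes of 15401 in all (0.734%). Limma on the authors' normalized values also called Cldn1 (adjusted p = 0.0470), with 48.0% of all genes called there. The hilar value was -3.14 ± 1.16 and moved to -1.37 without WT hilar mouse 1223 and to -5.98 without Ndr hilar mouse 1219. The peripheral value was -2.46 ± 1.11 (log2, SE). These rest on few reads, 0 to 142 counts per library.

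The start regions of 4 genes are shown because they have the 3 smallest unadjusted p-values of the set between genotypes in hilar cultures (Cldn1, Cldn3, Msn) or because the gene lies next to one of these on the opposite strand (Cldn4 beside Cldn3). They are RefSeq windows on GRCm38.p6 that run from 250 bases before to 50 bases after the annotated start, and capitals mark the E-box letters CACCTG on either strand, the core bound by SNAI and ZEB repressors of epithelial genes. The window of Cldn1 lies at chr16:26371790-26372089 (minus strand), of Cldn3 at chr5:134985964-134986263 (plus), of Cldn4 at chr5:134946885-134947184 (minus) and of Msn at chrX:96095795-96096094 (plus).
Cldn1: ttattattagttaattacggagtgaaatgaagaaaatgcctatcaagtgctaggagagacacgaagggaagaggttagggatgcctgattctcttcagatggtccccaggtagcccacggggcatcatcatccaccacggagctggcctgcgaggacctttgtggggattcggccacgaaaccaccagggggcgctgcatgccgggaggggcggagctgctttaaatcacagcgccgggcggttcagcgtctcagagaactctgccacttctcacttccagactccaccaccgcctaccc
Cldn3: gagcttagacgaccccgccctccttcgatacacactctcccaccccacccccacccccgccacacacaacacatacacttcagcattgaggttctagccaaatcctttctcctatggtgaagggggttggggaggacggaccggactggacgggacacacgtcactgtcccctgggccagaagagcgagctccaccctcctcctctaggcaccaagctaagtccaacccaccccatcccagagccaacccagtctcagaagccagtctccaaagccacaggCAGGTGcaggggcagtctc
Cldn4: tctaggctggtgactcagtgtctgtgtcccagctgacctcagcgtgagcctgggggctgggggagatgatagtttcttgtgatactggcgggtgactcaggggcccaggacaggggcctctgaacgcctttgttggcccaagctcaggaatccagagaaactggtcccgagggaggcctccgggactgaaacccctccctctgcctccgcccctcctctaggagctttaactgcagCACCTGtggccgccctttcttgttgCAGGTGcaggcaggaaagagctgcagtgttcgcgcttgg
Msn: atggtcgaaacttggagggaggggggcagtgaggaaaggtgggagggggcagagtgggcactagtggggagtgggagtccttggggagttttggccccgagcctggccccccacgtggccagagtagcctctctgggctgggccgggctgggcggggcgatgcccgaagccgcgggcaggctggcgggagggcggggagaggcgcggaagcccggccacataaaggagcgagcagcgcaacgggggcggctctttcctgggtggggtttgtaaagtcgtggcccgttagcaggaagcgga
Cldn4 held 2 such matches, Cldn3 held 1, and Cldn1 and Msn held 0. RefSeq windows were found for 31 of the 42 genes, and 16 of these genes (51.6%) had at least 1 CACCTG match, against 22.6% of 27025 genes. Some genes have more than 1 window, and per window the shares were 42% of 50 and 20.2% of 32851. The Notch effector core TGGGAA was matched in 14 of 31 (45.2%), against 28.3% of all genes (34% and 25.6% per window), and the Grainyhead-like AACCNGTT in 2 of 31 (6.45%, Cgn and Rdx), against 2.35% (4% and 2.09% per window). Both strands were searched, and matches of these motifs were counted independently of each other. The windows of the set also held more G and C, with a median of 60.7% against 52.7%. Such matches are letters in a window and were not set against binding data.

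Cldn3, another barrier claudin, ran in opposite directions in hilar and peripheral cultures. In the Ndr hilar group it stood at 140.5, 55.9 and 108 CPM, below the 155, 209 and 159.6 CPM of the WT hilar group, without overlap. In peripheral cultures the order turned, with 160.4, 238 and 179 CPM in Ndr and 120.0, 105 and 185 CPM in WT, and these groups overlapped. The log2 fold change of Ndr over WT was -0.78 ± 0.34 in hilar and 0.49 ± 0.34 in peripheral cultures (SE), and the test of the difference between them gave -1.27 ± 0.48 on the log2 scale with an unadjusted p of 0.0210 and an adjusted p of 0.994 (edgeR). Within Ndr mice the hilar culture was the lower of the pair in 3 of 3, by 0.19, 2.09 and 0.73 on the log2 scale in mice 1219, 1220 and 1224. Cldn4, its neighbour on chromosome 5, did not share that pattern: it stood at 781, 336 and 619 CPM in Ndr hilar cultures, 381, 556 and 347 in WT hilar cultures, 815, 369 and 207 in Ndr peripheral cultures and 194, 289.8 and 616 CPM in WT peripheral cultures. The 4 groups overlapped throughout.

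Cldn8, a claudin known from the kidney collecting duct, varied most of all 41 genes, with an SD of log2 CPM of 2.17 over the 12 cultures. Ndr cultures held 61.6, 69.8 and 46.3 CPM in the hilar group, against 5.37, 13.5 and 0.275 CPM in the peripheral group. All 3 Ndr mice thus had the higher value in the hilar culture, and the groups did not overlap. WT cultures held 42.1, 38.3 and 12.1 CPM in the hilar group and 9.16, 70.9 and 3.60 CPM in the peripheral group, where mouse 1223 stood above the other cultures. The hilar over peripheral log2 fold change was 3.21 ± 1.17 in Ndr cultures, with an adjusted p of 0.429 (edgeR, range 0.0979 to 0.816 over 14 alternatives). The genotype difference in peripheral cultures, -2.12 ± 1.13 (log2, SE), moved to -0.04 without WT peripheral mouse 1223.

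Cldn6, a claudin of embryonic epithelia, came second in spread, with an SD of log2 CPM of 1.94. The Ndr hilar group held 11.0, 16.3 and 30.6 CPM, and the WT hilar group 30.7, 57.3 and 257 CPM. In peripheral cultures they were 104, 2.26 and 66.9 CPM in Ndr and 55.2, 7.30 and 176 CPM in WT. The hilar groups touched without overlapping, and the peripheral groups overlapped fully. Mouse 1225 had the highest WT value in each region. Cldn2, which forms a pore for sodium and water, was the most abundant claudin and stood at 587 to 1372 CPM, with Ndr hilar cultures close together at 1011, 1044 and 1051 CPM. Cldn7, Cldn12 and Cldn23 varied over 156 to 446, 88.4 to 226 and 3.02 to 7.57 CPM.

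**Figure D2:**
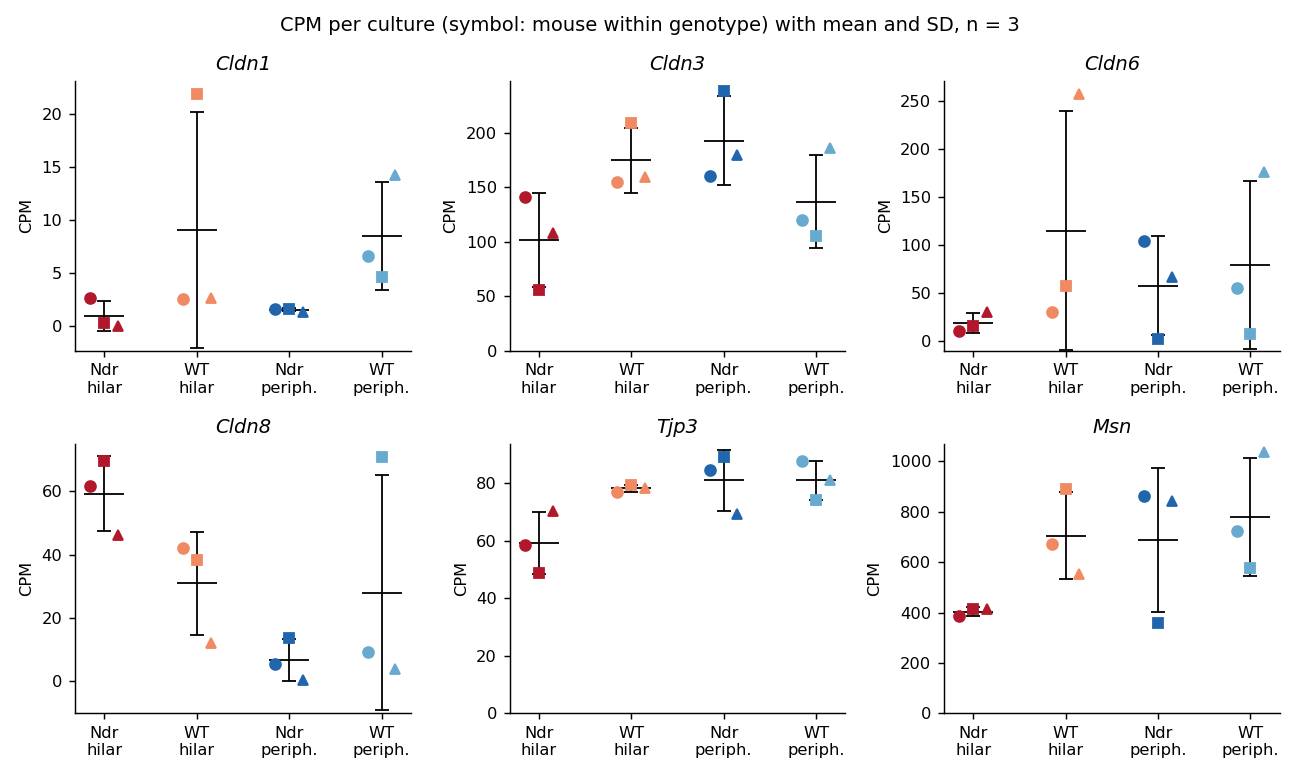
CPM of 6 genes in each culture by group, with the mean and SD of 3 cultures (an SD bar may pass below 0 where 1 culture stands apart); symbols mark the mice within a genotype. Cldn1 is low in the 3 Ndr peripheral cultures at 1.37 to 1.65 CPM, Cldn8 is high in the 3 Ndr hilar cultures at 46.3 to 69.8 CPM, and Msn and Tjp3 are lower in Ndr hilar than in every WT hilar culture.

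Other tight junction genes. Tjp3 (ZO-3), a scaffold that binds claudins, stood at 58.5, 48.9 and 70.3 CPM in the Ndr hilar group, against 77.1, 79.6 and 78.4 CPM in the WT hilar group, with no overlap. In peripheral cultures it held 84.7, 89.3 and 69.2 CPM in Ndr and 87.7, 74.2 and 81.3 CPM in WT, which overlapped. Its hilar genotype log2 fold change was -0.40 ± 0.18, with an adjusted p of 0.750 (edgeR). Tjp1 (ZO-1), the founding member of that scaffold family, stood at 156, 409.6 and 287 CPM in Ndr hilar, 346, 382 and 409.5 CPM in WT hilar, 453, 274 and 458 in Ndr peripheral and 466, 457 and 471 CPM in WT peripheral cultures. Summed per mouse, it averaged 335 ± 48.5 CPM in Ndr and 425 ± 24.1 CPM in WT mice (SD, n = 3 each), with a log2 fold change of -0.34 ± 0.16 and an adjusted p of 0.903 (edgeR). The lowest Tjp1 values came from Ndr hilar mouse 1219 and Ndr peripheral mouse 1220, cultures in which long genes as a whole were low, as described further on. Long genes were also low in WT hilar mouse 1223, which held 382 CPM of Tjp1, between the 346 and 409.5 CPM of the other WT hilar cultures. The part of exon length in the Tjp1 values was not tested. F11r (JAM-A), an immunoglobulin-type junction receptor, ranged from 261 to 459 CPM with overlap in each comparison within a region. Ocln, Marveld2 (tricellulin, found where 3 cells meet) and Marveld3 were among the steadiest, and the median SD of log2 CPM over the 7 genes was 0.25. That compares with 0.56 over the 9 tested claudins and 0.35 over 6687 tested genes of like level (31.1 to 644 CPM).

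Adherens junction genes. Cdh1 held 875, 1428 and 1305 CPM in Ndr hilar cultures, against 1334, 968 and 1068 CPM in WT hilar cultures. In peripheral cultures it held 1741, 1052 and 1416 CPM in Ndr and 1509.6, 1271 and 1298 CPM in WT. Ctnnb1, which binds the tail of E-cadherin and also acts in Wnt signalling, ranged from 1200.3 to 2458 CPM, both extremes in Ndr peripheral cultures. Both genes overlapped between genotypes in each region. The 6 adherens genes had a median genotype log2 fold change of -0.13 in hilar and 0.03 in peripheral cultures, and 0 had an unadjusted p under 0.05. In Ndr cultures 6 of 6 had a lower fitted level in hilar than in peripheral organoids, with a median of -0.21 on the log2 scale, none past the test. Only Nectin2 was lower in all 3 Ndr mice: in mouse 1220 the other 5 were higher in the hilar culture, by 0.42 to 0.90 on the log2 scale. Without the Ndr peripheral culture of mouse 1219, 2 of 6 were negative (median 0.09), and without its hilar culture 3 of 6 were (median -0.02).

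Polarity genes. Dlg1 (of the Scribble complex) ranged from 116 to 205 CPM and Prkci (the atypical protein kinase C of the Par complex) from 98.2 to 169 CPM, and both overlapped between genotypes in each region. Prkcz, the related kinase, held 22.9, 42.5 and 28.1 CPM in Ndr hilar and 26.4, 21.2 and 15.8 CPM in WT hilar cultures. Peripheral cultures held 28.7, 23.4 and 26.3 CPM in Ndr and 22.5, 23.4 and 17.7 CPM in WT. Per mouse the genotypes did not overlap, with 27.7 ± 2.74 CPM in Ndr and 21.5 ± 4.06 CPM in WT mice (SD, n = 3 each), and all 3 Ndr mice lay above all 3 WT mice. Its log2 fold change was 0.36 ± 0.18, with an adjusted p of 0.903 (edgeR). Pard6b, the adaptor of the Par complex, had the smallest unadjusted p in the WT region comparison at 0.181, with a hilar over peripheral log2 fold change of -0.28 ± 0.20. Dlg1 had -0.27 ± 0.21 in that comparison and -0.25 ± 0.21 in the peripheral genotype comparison (log2, SE). The median genotype log2 fold change of the 10 polarity genes was 0.06 in hilar and -0.11 in peripheral cultures, with 0 at an unadjusted p under 0.05.

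ERM genes. Msn (moesin), the family member typical of mesenchymal and blood cells, stood at 385, 414 and 414 CPM in Ndr hilar cultures, all below the 671, 893 and 553 CPM of WT hilar cultures. Ndr peripheral cultures held 863, 359 and 844 CPM and WT peripheral cultures 723, 578 and 1036 CPM, which overlapped. The hilar genotype log2 fold change was -0.80 ± 0.35, with an adjusted p of 0.750 (edgeR, range 0.190 to 0.9999 over 14 alternatives). Vim, a mesenchymal marker, stood at 0.638 to 2.51 CPM in Ndr hilar and 4.77 to 51.8 CPM in WT hilar cultures. In peripheral cultures it stood at 2.83 to 1974 CPM in Ndr and 4.66 to 561 CPM in WT. Vim did not follow Msn in every culture. Ndr peripheral mouse 1219 held 863 CPM of Msn with 3.72 CPM of Vim, and WT hilar mouse 1223 held 893 CPM with 6.02 CPM. The mesenchymal list of 8 genes, led by Fn1 and with 5 over 1 CPM (Snai1, Snai2 and Twist1 stood at 0 to 0.42 CPM), summed to 873 to 3575 CPM in Ndr hilar and 659 to 3096 CPM in WT hilar cultures. Mean Fn1 was higher in Ndr hilar cultures, at 2330 CPM against 1715 CPM in WT hilar cultures, while mean Vim, Cdh2, Zeb1 and Zeb2 were lower. The part of these cells or states in the Msn values was not tested, and fewer cells of a type cannot be told from less RNA per cell in bulk samples. Ezr, the ERM protein of most epithelia, held 354, 575 and 498 CPM in Ndr hilar, 433, 487 and 738 in WT hilar, 649.6, 427 and 973 in Ndr peripheral and 556, 437 and 845 CPM in WT peripheral cultures, with overlap between genotypes in each region. Rdx (radixin) was among the steadiest 3 genes, with an SD of log2 CPM of 0.19.

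Desmosome genes. Jup (plakoglobin) held 143, 267 and 272 CPM in Ndr hilar and 289, 197 and 275 CPM in WT hilar cultures. It held 436, 236 and 355 CPM in Ndr peripheral and 287, 253 and 295 CPM in WT peripheral cultures. Dsp (desmoplakin), which ties the desmosome to keratin, held 82.6, 279 and 221 CPM in Ndr hilar and 239.8, 207 and 251 CPM in WT hilar cultures. Its peripheral values were 575, 145 and 342 CPM in Ndr and 289.9, 372 and 233 CPM in WT. Both genes overlapped between genotypes in each region, and both had their lowest value in Ndr hilar mouse 1219. Dsc2, a desmosomal cadherin, followed Cldn8, Cldn6 and Cldn1 in spread (SD of log2 CPM 0.75) and was lower in the hilar than in the peripheral culture of each Ndr mouse, with 59.0, 17.1 and 39.2 CPM against 69.1, 102 and 59.4 CPM. The 6 desmosome genes all had a negative hilar genotype fold change (median log2 -0.28) and all had a positive peripheral one (median 0.18). The uniform signs did not hold without single cultures: without the Ndr hilar culture of mouse 1219, 3 of 6 were negative in hilar organoids (median -0.12), and without the Ndr peripheral culture of that mouse, 3 of 6 were positive in peripheral organoids (median -0.03). None of the 6 had an unadjusted p under 0.05 in either comparison (edgeR), and the 6 genes share the same libraries.

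**Figure D3:**
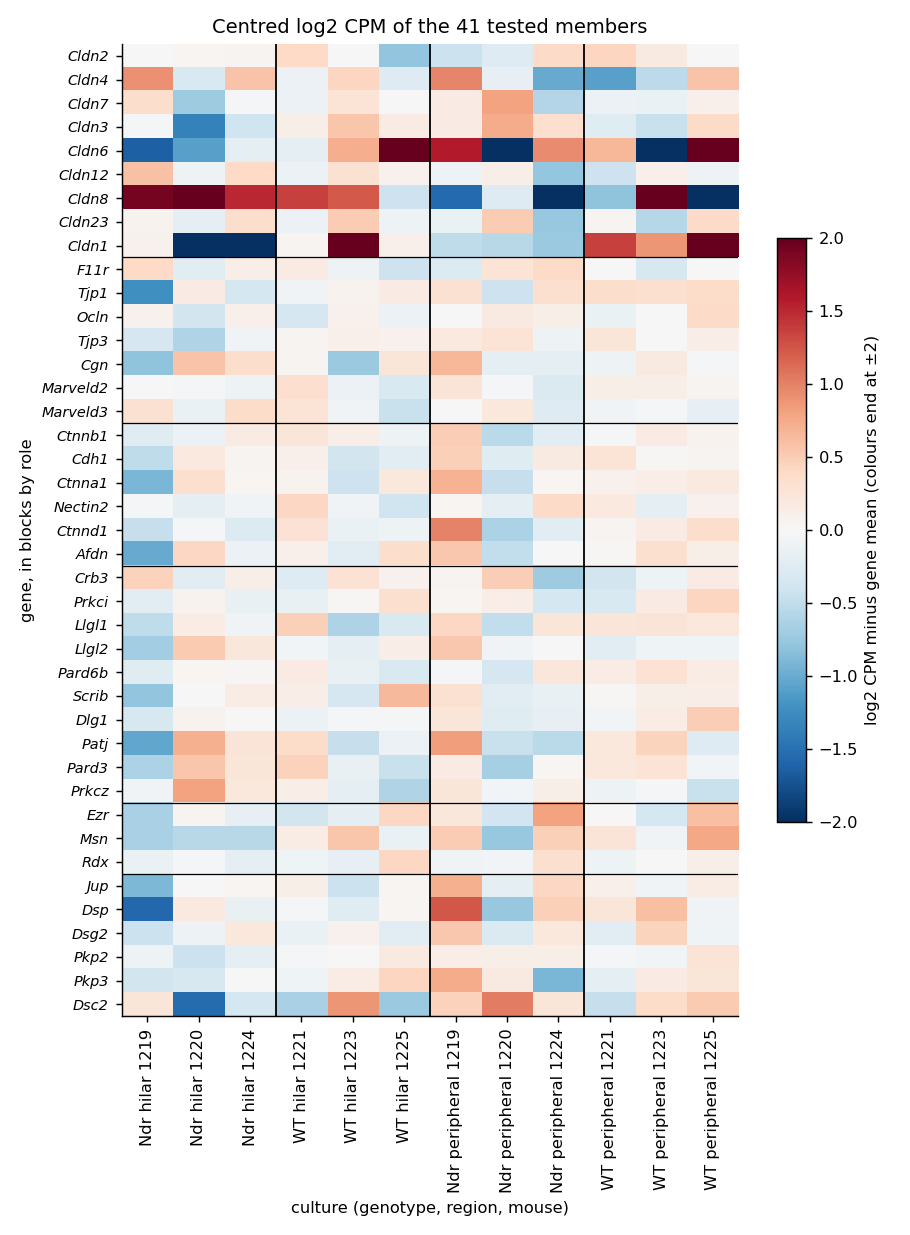
Log2 CPM minus the gene's mean over 12 cultures for the 41 tested genes, in blocks by role, with Ndr hilar, WT hilar, Ndr peripheral and WT peripheral cultures set apart by lines. Cldn6, Cldn8 and Cldn1 carry the strongest colours, and Ndr hilar mouse 1219 is low in many adherens, polarity and desmosome genes while Ndr peripheral mouse 1219 is high in them.

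The genotype comparison was then read over the whole set. In the 6 mouse totals, 1 of 41 genes had an unadjusted p under 0.05 (Cldn1, lower in Ndr), against 5.42% of all 15401 genes tested. The median log2 fold change was -0.06 over the set and -0.00 over all genes, with 14 positive and 27 negative. Ndr and WT mice did not overlap for 6 genes, of which Cldn1, Tjp1, Msn, Afdn and Tjp3 were lower and Prkcz higher in Ndr, while 11.3% of all genes did not overlap. In hilar cultures 4 genes had an unadjusted p under 0.05 (Cldn1, Cldn3, Msn and Tjp3, each lower in Ndr), against 6.54% of all 15014 genes, and the median was -0.08 against -0.00. Cldn3, Msn, Tjp3, Cldn6 and Pkp2 were lower and Cldn8 higher without overlap, against 8.75% of all genes. In peripheral cultures 1 gene did (Cldn1, lower in Ndr), against 2.92%, with a median of 0.02 against 0.03. There Cldn1 was lower and Llgl2 higher without overlap, against 9.02% of all genes. Of these names, Afdn and Llgl2 fall outside the naming rule given below, and Cldn6 and Pkp2 meet it only through their spread and the interaction. Each of them was listed here after its values were seen.

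**Figure D4:**
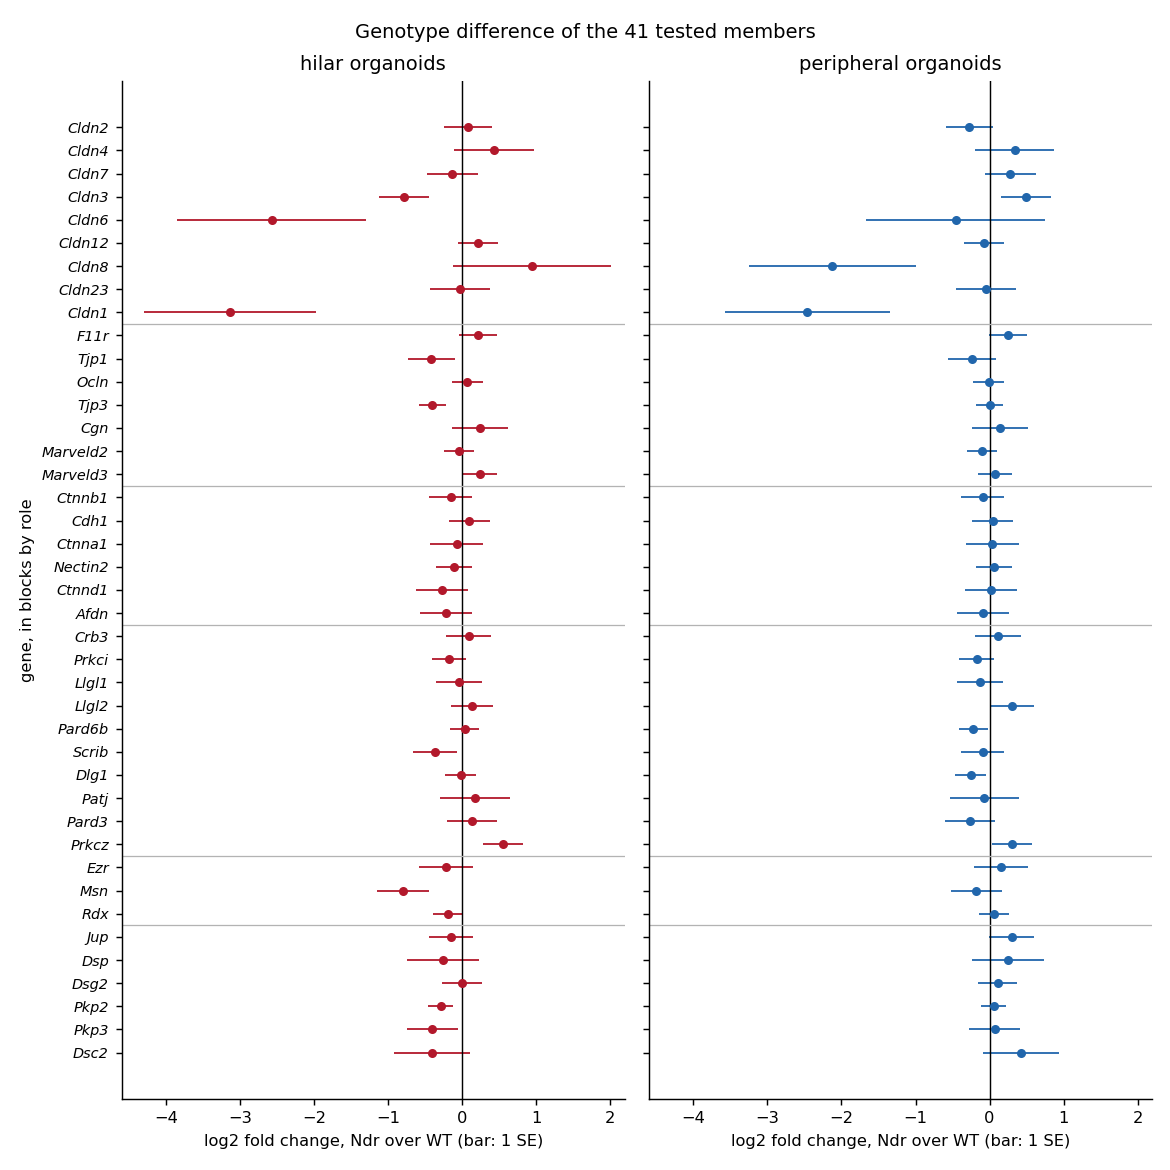
Log2 fold change of Ndr over WT for the 41 tested genes, with a bar of 1 SE, in hilar (left) and peripheral (right) organoids, in blocks by role. Cldn1 lies at -3.14 in hilar and -2.46 in peripheral organoids, Cldn3 at -0.78 and 0.49, and most other genes lie near 0.

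Region was compared within each genotype and over both. In Ndr cultures 3 genes had an unadjusted p under 0.05 (Cldn8 higher, Cldn3 and Tjp3 lower in hilar organoids), against 10.3% of all genes. Hilar and peripheral cultures did not overlap for 4 genes, Cldn8 (higher in hilar), Cldn3, Pkp2 and Dsc2 (lower), where 15.4% of all genes did not. The median hilar over peripheral log2 fold change was -0.19 over the set and -0.01 over all genes, and 31 of 41 were negative. In WT cultures 0 of 41 had an unadjusted p under 0.05, against 0.506% of all genes, with a median of -0.05 against 0.03, and Tjp1 (lower in hilar) was the 1 gene without overlap, where 5.54% of all genes had none. Over both genotypes it was 0 of 41, against 6.07%, with a median of -0.14 against 0.02 and 32 negative, and the 6 hilar cultures overlapped the 6 peripheral ones for each of the 41 genes (0.113% of all genes did not overlap). Ocln had a WT log2 fold change of -0.22 ± 0.21 and Cldn3 of 0.35 ± 0.33. Cldn12 had 0.37 ± 0.19 and Cldn8 1.68 ± 0.78 over both genotypes (log2, SE), with adjusted p-values of 0.829 and 0.824 (edgeR). The difference of the region effects between genotypes had an unadjusted p under 0.05 for 1 of 41 genes, Cldn3, against 3% of all genes.

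Within single mice, as labelled, no gene had the same sign of hilar minus peripheral in all 6 mice (1.12% of all genes were higher in 6 of 6 and 1.37% lower). In the 3 Ndr mice Cldn8 was always higher in the hilar culture and Cldn3, Nectin2, Pkp2 and Dsc2 always lower, where 12.8% of all genes were always higher and 12.8% always lower. In the 3 WT mice Cldn12 was always higher and Cldn2, Tjp1, Cdh1 and Dlg1 always lower, where 10.3% and 9.35% of all genes were. For 0 of 41 genes did all Ndr mice go one way and all WT mice the other, against 1.31% of all genes.

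The mean centred log2 CPM over the 41 genes was -0.14 ± 0.12 in Ndr hilar, 0.06 ± 0.05 in WT hilar, -0.02 ± 0.27 in Ndr peripheral and 0.10 ± 0.11 in WT peripheral cultures (SD, n = 3 each). Ndr hilar was the lowest group mean for 23 of the 41 genes, and Ndr peripheral and WT peripheral were each the highest for 15. These orders were counted within the set alone, without the share over all tested genes, so they cannot be read as particular to it. The single Ndr hilar cultures gave -0.27, -0.10 and -0.04 (mice 1219, 1220 and 1224), and the WT hilar cultures 0.07, 0.10 and 0.01 (mice 1221, 1223 and 1225). In Ndr peripheral cultures the values were 0.29, -0.20 and -0.15, so that mouse 1219 held both the lowest hilar and the highest peripheral value. The proliferation list of 10 genes summed to 409, 234 and 256 CPM in Ndr hilar and 429, 297 and 1973 CPM in WT hilar cultures. The high WT hilar sum came from mouse 1225 alone. Peripheral sums ran from 774 to 1345 CPM in Ndr and from 653 to 825 CPM in WT cultures. The part of proliferation in the low Ndr hilar values was not tested.

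Exon length moved with these values. Over 14988 genes with a length, the rank correlation between exon length and a library's deviation from the gene mean was -0.45 in Ndr hilar mouse 1219, -0.39 in Ndr peripheral mouse 1220 and -0.35 in WT hilar mouse 1223 (a description across genes of 1 library). It was 0.35 in Ndr hilar mouse 1220, 0.35 in WT hilar mouse 1221 and 0.34 in WT peripheral mouse 1223. The 18 genes of the set with over 5000 exon bases had a median centred log2 CPM of -0.65 in Ndr hilar mouse 1219 and of 0.50 in Ndr peripheral mouse 1219. The 23 shorter genes had -0.01 and 0.06 in those cultures. The long genes include Dsp, Tjp1, Afdn, Patj, Pard3 and Dlg1, which were low together in Ndr hilar mouse 1219. Without the 3 low libraries, and with the length trend removed (alternatives chosen after seeing the data), the number of genes at an unadjusted p under 0.05 in Ndr hilar against peripheral cultures was 7 and 5, against 8.43% and 12.1% of all genes tested in those settings, and 0 of the 41 genes passed the adjusted threshold in any comparison.

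**Figure D5:**
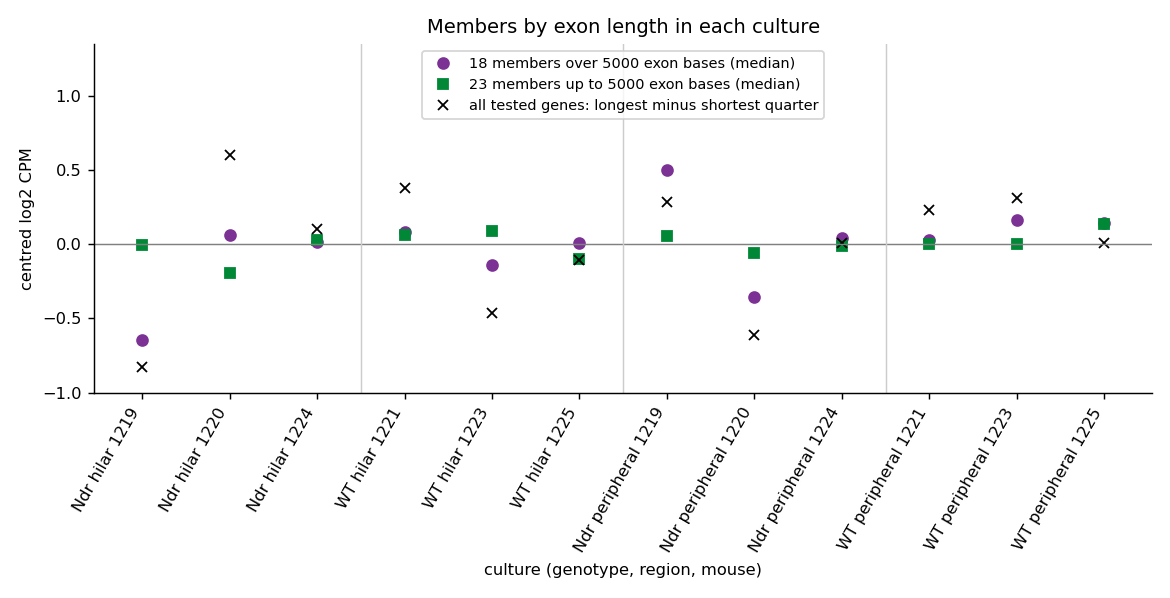
Median centred log2 CPM of the 18 genes over 5000 exon bases and of the 23 shorter ones in each culture, with the difference between the longest and the shortest 25% of all tested genes (crosses). Long genes of the set are lowest in Ndr hilar mouse 1219 at -0.65 and highest in Ndr peripheral mouse 1219 at 0.50, while shorter ones stay between -0.19 and 0.14.

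A further 93 junction and polarity genes outside the set were listed, of which 91 matched an identifier and 70 were tested (69 in the mouse totals). At an unadjusted p under 0.05 (edgeR), 2 were higher and 5 lower for genotype over both regions (5.42% of all genes passed in either direction), and 2 and 7 for genotype in hilar cultures (6.54% of all genes). In peripheral cultures the genotype counts were 2 and 0 (2.92%). For region they were 0 and 0 in WT (0.506%), 2 and 7 in Ndr (10.3%) and 1 and 2 over both genotypes (6.07%), and for the interaction 0 and 1 (3%). None passed an adjusted p of 0.05 in the 12 libraries or the 6 mouse totals. Cdh16, a kidney-type cadherin, held 2.51, 86.7 and 85.7 CPM in Ndr hilar and 3.78, 1.85 and 8.16 CPM in WT hilar cultures, with a log2 fold change of 3.66 ± 1.15 there. Over both regions it had 2.84 ± 0.57 with an adjusted p of 0.498 (edgeR). DESeq2 called it (adjusted p = 5.27e-05), as did limma on the authors' normalized values (adjusted p = 0.000758). Without Ndr mouse 1219, edgeR called it (adjusted p = 0.0262), and over 14 alternatives the adjusted p ranged from 5.27e-05 to 0.9999. In hilar cultures the high values came from mice 1220 and 1224, and Ndr hilar mouse 1219 stood with the WT cultures. Summed per mouse over both regions, all 3 Ndr mice lay above all 3 WT mice. Pvr, a nectin-like receptor, held 37.4, 38.8 and 45.5 CPM in Ndr hilar and 66.2, 91.3 and 79.1 CPM in WT hilar cultures, with no overlap and a log2 fold change of -0.96 ± 0.29. Slc9a3r1, the scaffold that joins ezrin to apical transporters, held 135, 216 and 185 CPM in Ndr peripheral and 104, 119 and 117 CPM in WT peripheral cultures, with no overlap and a log2 fold change of 0.66 ± 0.21. Amotl2, a tight junction protein of the angiomotin family, had -0.59 ± 0.19 for genotype over both regions (log2, SE). In the region comparison of Ndr cultures, Lima1 (a binder of alpha-catenin and actin) had -0.79 ± 0.26, Anxa2 (an annexin of the apical membrane) had -1.88 ± 0.67 and Evpl (envoplakin) had -1.02 ± 0.36. Pkp1 (plakophilin 1) had -1.23 ± 0.50 for region over both genotypes (log2, SE). Ybx3 had -0.78 ± 0.25 for genotype in hilar cultures, without overlap, and 0.27 ± 0.25 for region in WT. Gjb1 had 0.82 ± 0.45 for genotype in peripheral cultures. On the authors' normalized values limma called both for genotype (adjusted p = 0.0261 and 0.00865), with 9.86% and 0.613% of all genes called there. For region in WT, Cdh13 had -0.94 ± 0.52 and Mpp5 had -0.27 ± 0.25 (log2, SE).

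Some gene counts may hold reads of a neighbour, since the strand setting is not given in the sources used here. Exons of Cldn3, Tjp3, Ctnna1, Nectin2, Afdn, Crb3, Llgl1, Ezr, Dsp, Dsg2, Ctnnb1 and Msn overlap a gene on the opposite strand in GENCODE M21, and Ctnnd1 and Ctnnb1 each overlap one on their own strand (for Ctnnb1 a miRNA gene).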

How the data were processed

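RNA-seq libraries (TruSeq RNA v2 kit, Illumina NextSeq) of 12 cultures were analysed from the raw counts per gene that the authors deposited, which name 53700 genes, 28444 of them with a count. The submitters' processing notes name featureCounts and GRCm39. Which aligner, annotation release and strand setting were used, and how shared reads were treated, is not given in the sources used here. Library totals ran from 6708822 to 16030880, and replicates are separate mice. A second deposited table holds normalized values (a signal per gene made by the authors), for which the notes name DESeq2 1.34.0. Its ratio to the raw count was not 1 factor per library: among 11305 genes with over 20 counts in every library, 13.4% to 22.5% lay within 5% of the library's median ratio. It served only as an alternative.

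Counts were tested with edgeR 4.0.16 under R 4.3.3, by the robust quasi-likelihood F test after filterByExpr and TMM scaling, with Benjamini-Hochberg adjustment and a threshold of 0.05. Genotype within a region, region and the interaction came from 1 fit over the 12 libraries (15014 genes, 8 residual degrees of freedom), and genotype over both regions from 6 mouse totals (15401 genes, 4 residual degrees of freedom). The procedure was tested on simulated counts with large fold changes, 1 fixed dispersion and no exon length trend. That test does not cover small differences such as most of those given here. CPM uses TMM-scaled library sizes, log2 CPM adds a prior count of 2, and levels per kb use the exon union of GENCODE M21 on GRCm38, used for names and lengths only; 52093 identifiers had a symbol. Promoter windows are RefSeq sequences on GRCm38.p6. Floors (3 counts) cover counting error only, whereas each SD and SE also includes variation between cultures or mice. The edgeR test returns no SE, so each SE of a fold change is the one implied by the fold change and its F statistic.

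Hilar and peripheral cultures of a mouse come from the same animal per the labels, so the mouse number pairs them. Correlations of the deviations of a mouse's 2 libraries from their group means were -0.31, -0.34, 0.14, 0.33, -0.06 and 0.45 in mice 1219, 1220, 1224, 1221, 1223 and 1225, whereas hilar mouse 1219 correlated at 0.45 with peripheral mouse 1220, and hilar mouse 1220 at 0.31 with peripheral mouse 1219. Whether labels of these mice were exchanged was not tested. An exchange within a region would leave the 12-library groups as they are but would alter the mouse totals and the within-mouse values of 1219 and 1220.

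Genes were named by a rule: per comparison those past the threshold, or else the 4 with the smallest p and at least 5 CPM in the higher group; the pair of highest mean CPM per role; up to 3 other junction genes per comparison; and the 5 with the largest SD of log2 CPM. The members, lists and rule were chosen with earlier results of these data known. Alternatives were DESeq2 size factors, no filter, DESeq2 1.42.0, limma 3.58.1 (voom, and trend on the normalized table, with log2(value + 1)), derivation date as a factor, the mouse as a block, leaving out each library or mouse, and 2 added after seeing the data (leaving out the 3 libraries with low long genes, and removing the length trend).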

Additional observations from a re-analysis of the deposited data

How the results depend on the processing

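Of the alternatives run, those on the raw counts left 0 genes of the set past the adjusted threshold, except DESeq2 for genotype over both regions (1, Cldn1). On the authors' normalized table, limma-trend called 22 of 41 (53.7%) for genotype over both regions, against 7388 of 15401 genes in all (48.0%), and 1 for genotype in hilar cultures, against 1480 of 15014 (9.86%). Counts of the 41 genes at an unadjusted p under 0.05 moved as follows, with the share of all genes under the same setting in brackets. For genotype over both regions (1 in the main analysis) they were 2 with DESeq2 (6.09%), 4 with derivation date as a factor (10.5%), 24 on the normalized table (55.4%), 3 without the 3 libraries with low long genes (3.08%) and 2 with the length trend removed (5.16%). For genotype in hilar cultures (4) the counts were 1 with date (9.38%) and 8 on the normalized table (28.9%). There were 5 with DESeq2 (8.46%) or with the length trend removed (8.15%), and 3 with no filter (4.35%) or without the 3 libraries (7.71%). For genotype in peripheral cultures (1) they were 0 with no filter (2.36%), with date (2.54%) or with the length trend removed (3.08%), and 2 with DESeq2 (3.65%), on the normalized table (9.37%) or without the 3 libraries (2.24%). For region in WT (0) they were 2 on the normalized table (7.68%) and 1 without the 3 libraries (2.18%). For region in Ndr (3) they were 5 with DESeq2 (12.3%), 8 on the normalized table (15.1%), 7 without the 3 libraries (8.43%) and 5 with the length trend removed (12.1%). For region over both genotypes (0) they were 1 with DESeq2 (7.41%) or limma-voom (6.31%), 8 on the normalized table (14.5%) and 4 without the 3 libraries (7.23%). The interaction (1) had 2 with DESeq2 (4.57%). On the normalized table the median log2 fold change was -0.22 for genotype in hilar cultures and 0.057 for the interaction, and the interaction of Tjp3 turned to 0.019 (adjusted p = 0.988, limma). With the mouse as a block for the pairing, region over both genotypes had 1 gene at an unadjusted p under 0.05 in place of 0 (5.06%) and region in Ndr had 2 in place of 3 (8.46%), and the block changed no adjusted call. The causes were not tested.

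Leaving out 1 library or mouse left 0 of the 41 genes past the adjusted threshold in each comparison. Unadjusted counts ranged from 1 to 2 (genotype over both regions), 0 to 4 (genotype, hilar; 0 without WT hilar mouse 1223), 0 to 1 (genotype, peripheral), 0 to 1 (region, WT), 1 to 6 (region, Ndr), 0 to 4 (region, both) and 0 to 2 (interaction). Median log2 fold changes ranged in the same order from -0.13 to -0.05, -0.18 to 0.00, -0.21 to 0.081, -0.12 to -0.01, -0.22 to -0.024, -0.17 to -0.10 and -0.25 to 0.035. Ndr peripheral mouse 1219 set the medians furthest from the main value for genotype in peripheral cultures (-0.21 without it) and for region in Ndr (-0.024). Derivation dates are shared across genotypes by mice 1224 and 1225 alone, so date and genotype can hardly be told apart. The date alternative, which is among those counted above for genotype over both regions, thus sets mouse 1224 against mouse 1225 alone in that comparison.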
